A study of Mus musculus with 20 samples.

Results

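Oxidative phosphorylation is the last stage of respiration in mitochondria. Complexes I and II take electrons from NADH and succinate, complex III passes them to cytochrome c, complex IV hands them to oxygen, and complex V (ATP synthase) uses the proton gradient built by complexes I, III and IV to make ATP. Most subunits are encoded in the nucleus and imported, and a small set is encoded by mitochondrial DNA. Mature neutrophils hold few mitochondria and live mainly on glycolysis, whereas their dividing precursors in bone marrow respire more.

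The genes described here are those whose symbol begins with Nduf followed by a, b, c, s or v and a number, with Uqcr, with Cox and a number from 4 to 8, or with Atp5, together with the 4 genes Sdha to Sdhd. This rule found 84 of the 24421 genes in the count tables: 35 of complex I, 4 of complex II, 8 of complex III, 18 of complex IV, 15 of complex V, and 4 that are not structural subunits (Ndufa4l2, Cox7a2l, Atp5s and Atp5sl). Ndufa4 was counted with complex IV, where its protein resides. The tables held 0 genes of mitochondrial DNA, so only the nuclear part of each complex is described.

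RNA was sequenced from bone marrow neutrophils of 20 female mice in 4 groups of 5: WT and Bmal1 Mye-/- mice, each left untreated or treated with IMQ. WT mice were C57BL/6J. Bmal1 Mye-/- mice carried floxed alleles of Bmal1 (Arntl), which encodes a core transcription factor of the circadian clock, and LysM-Cre, which is active in neutrophils, monocytes and macrophages. IMQ (imiquimod) activates TLR7 and was given as a 5% cream on both ears, 3 times per week for 6 weeks from 8 to 10 weeks of age. No age was given for untreated mice. WT mice were purchased and lacked Cre, so the loss of Bmal1, the Cre allele, the floxed locus and the breeding colony cannot be told apart. Neutrophils were enriched by negative magnetic selection from femurs and tibias, with the morning given as the time of death.

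Libraries held 30782166 to 92613500 counts on genes. The 10 neutrophil marker genes together took 71355 to 159593 CPM (counts scaled to a common library total with edgeR's TMM factors). In 2 libraries the sums stood apart: IMQ-treated WT replicate 3, and the library labelled Bmal1 Mye-/- IMQ replicate 1, which had the lowest neutrophil marker sum and a monocyte and macrophage marker sum of 1469 CPM against 142 to 557 in the other 4 libraries of its group. A further pair, IMQ-treated WT replicate 5 and Bmal1 Mye-/- IMQ replicate 2, lay among the untreated libraries on the first principal component. Arntl was at 0.895 to 1.71 CPM in untreated and 0.562 to 1.87 CPM in IMQ-treated WT libraries, and at 0.468 to 1.10 CPM in untreated and 0.337 to 1.52 CPM in IMQ-treated Bmal1 Mye-/- libraries. The highest of the last range was the library labelled Bmal1 Mye-/- IMQ replicate 1, above 4 of the 5 IMQ-treated WT libraries, and IMQ-treated WT replicate 1 lay within the range of the Bmal1 Mye-/- libraries. Counts over the whole gene do not separate the floxed part from the rest of the transcript, so they do not check the deletion.

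Nuclear subunit genes share some promoter motifs, which was examined first. RefSeq promoters (GRCm38, 250 bases before to 50 after a start) were matched for 69 of the 84 genes. Of these, 66 were tested for expression, and they are set beside 11039 tested genes with a promoter. On either strand, 10 of the 66 (15.15%) held GCATGCGC, part of the NRF1 palindrome, against 5.60% of tested genes. The YY1 core AAGATGGC was held by 11 (16.7%), against 4.96%. The ETS core CCGGAAG, which GABP binds, was held by 16 (24.2%), against 18.9%. The E-box CACGTG, the letters that BMAL1 binds with CLOCK, was held by 7 (10.6%), against 11.4%, and TATAAA by 5 (7.58%), against 9.15%. Over all 69 genes TATAAA was held by 7 (10.1%), against 15.7% of all 27025 genes, and the NRF1 part by 10 (14.5%), against 3.05%. The 7 with the E-box letters were Atp5f1, Atp5g1, Atp5g3, Atp5l, Atp5sl, Ndufa7 and Ndufv1. The ETS and YY1 cores can share the letters AAG. A match is a match of letters only.

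The 100 bases before the start are shown for 5 of the genes that passed the test after IMQ in Bmal1 Mye-/- mice, to set their promoters beside their values below, with motif letters in capitals on the strand of the gene. Ndufa11 (chr17:56717662-56717761, plus strand) held the NRF1 part on both strands, and 1 of 2 starts of Atp5j (chr16:84834977-84835076, minus strand) held the YY1 and ETS cores. Sdhd (chr9:50603850-50603949, minus strand) held the ETS core on the opposite strand. At 1 of its 2 starts Ndufa7 (chr17:33824472-33824571, plus strand) held the E-box, and TATAAA on the opposite strand. Ndufc2 (chr7:97399903-97400002, plus strand) held none of the searched letters in this stretch. Neither did Ndufa13, which also passed, nor the other starts of Atp5j and Ndufa7, which are not shown. The 5 genes do not stand for all that passed. Over the whole promoter window, 3 of the genes that rose held the NRF1 part and 13 did not. For the YY1 core these counts were 2 and 14, and for the ETS core 1 and 15.
Ndufa11: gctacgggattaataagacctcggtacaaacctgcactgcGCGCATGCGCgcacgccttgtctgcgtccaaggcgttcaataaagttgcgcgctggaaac
Atp5j: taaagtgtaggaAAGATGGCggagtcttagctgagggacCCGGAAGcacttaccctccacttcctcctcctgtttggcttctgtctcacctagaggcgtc
Sdhd: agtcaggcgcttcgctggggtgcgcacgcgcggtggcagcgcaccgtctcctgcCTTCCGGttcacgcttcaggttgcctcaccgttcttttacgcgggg
Ndufa7: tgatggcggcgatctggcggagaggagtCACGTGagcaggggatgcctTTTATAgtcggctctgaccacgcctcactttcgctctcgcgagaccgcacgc
Ndufc2: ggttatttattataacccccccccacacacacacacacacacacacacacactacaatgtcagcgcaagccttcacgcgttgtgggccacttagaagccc

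Transcripts of all 5 complexes were present in untreated WT neutrophils, and levels within a complex were far from equal. Levels are compared between genes as CPM per kb of the principal transcript. The median was 30.96 CPM per kb over 34 complex I genes, 45.0 over 4 complex II genes, 45.9 over 8 complex III genes, 61.1 over 14 complex IV genes and 68.4 over 15 complex V genes. The highest were Cox6a1 at 253 ± 19.3 (SD, n = 5 libraries), Cox4i1 at 237 ± 12.6 and Cox8a at 230 ± 14.1, all of complex IV, followed by the ATP synthase epsilon subunit Atp5e at 201 ± 11.2 and its catalytic beta subunit Atp5b at 178 ± 13.4. The spread of Cox6a1, Cox4i1 and Cox8a overlapped. In complex II, Sdhc, an anchor in the inner membrane, stood at 10.1 ± 0.780 CPM per kb while its partner anchor Sdhd stood at 55.7 ± 3.21, the flavoprotein Sdha at 39.2 ± 1.39 and the iron-sulfur protein Sdhb at 50.8 ± 1.91. These levels assume the transcript length of 1 principal isoform.

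The other 6 genes fell under the filter on low counts and were not tested. Cox7b2, Cox8b and Cox8c, isoforms known from testis or muscle, had 6, 24 and 1 reads in all 20 libraries. Cox4i2, an isoform known from lung and hypoxia, had 118 reads, and Ndufa4l2, a hypoxia-induced relative of Ndufa4, had 96. Ndufs5, a subunit of complex I, had 7 reads, with 31.1% of the 50-base windows of its transcript shared with another gene. Atp5l, with 84.8% of its windows shared, had 25927 reads. The low count of Ndufs5 is uncertain, and its cause was not tested. The remaining 78 genes were tested among 14030.

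**Figure D1:**
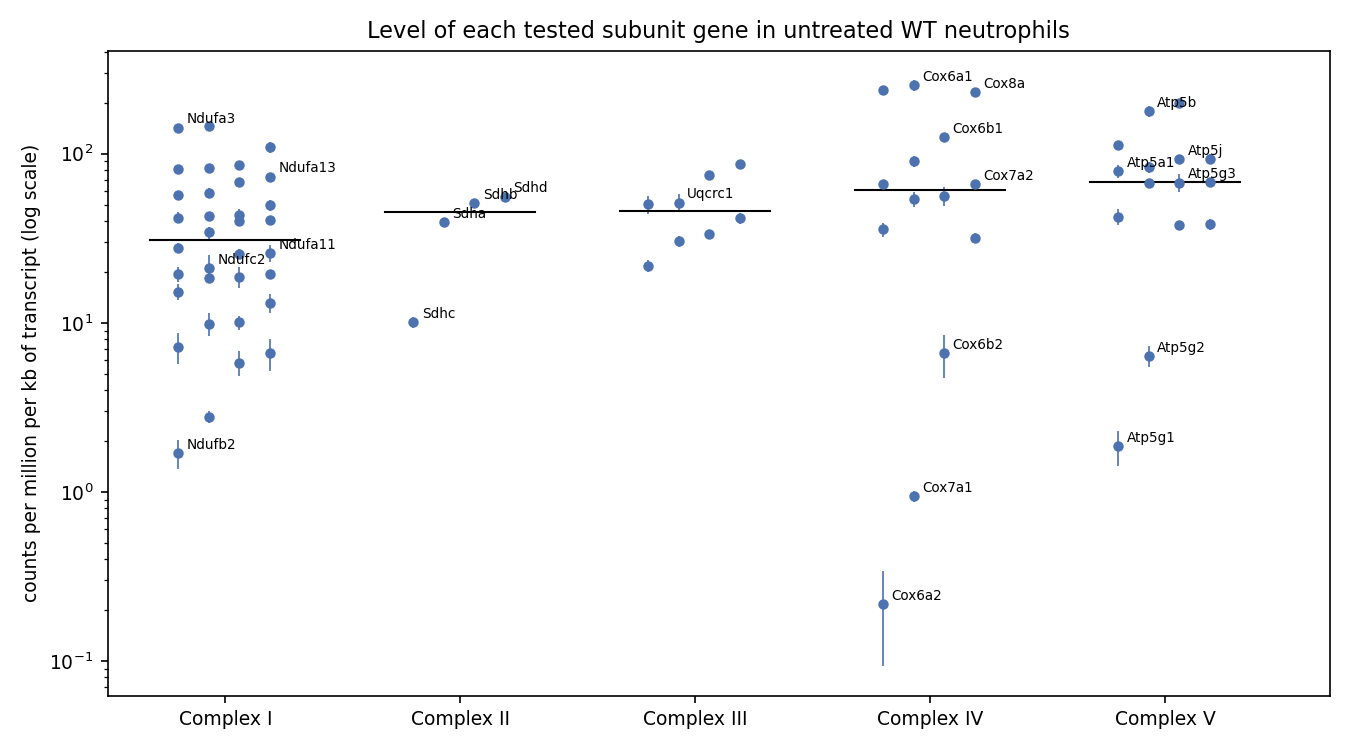
Level of each tested subunit gene in untreated WT neutrophils, as CPM per kb of transcript on a log axis, by respiratory complex (points, mean of 5 libraries, bars, SD, black lines, median of the complex). Cox6a2, Cox7a1 and Cox6b2 lie far below their paralogs, and Atp5g1 and Atp5g2 below Atp5g3. The position of Atp5g1 rests on a transcript length of 4715 bases.

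Within each isoform pair 1 gene held nearly all transcript. Cox4i1 made up 99.93% to 99.96% of Cox4i transcript per kb as a group mean, Cox6a1 99.91% to 99.96% of Cox6a transcript, and Cox7a2 98.3% to 98.6% of Cox7a transcript. Cox6b2, the testis isoform, was the exception, with 4.92% ± 1.15 of Cox6b transcript in untreated WT, 5.79% ± 1.45 in untreated Bmal1 Mye-/-, 6.396% ± 4.46 in IMQ-treated WT and 7.21% ± 1.89 in IMQ-treated Bmal1 Mye-/- libraries (SD, n = 5). The 4 groups overlapped, and the highest share was 14.2% in IMQ-treated WT replicate 3. Of the 3 genes for the c-ring subunit of ATP synthase, whose mature proteins are the same, Atp5g3 held 89.1% ± 1.08 in untreated WT and Atp5g1 2.43% ± 0.316. The share of Atp5g1 is uncertain because it rests on a principal transcript of 4715 bases, against 723 for Atp5g3 and 731 for Atp5g2. Without scaling by length the untreated WT means were 48.8 CPM for Atp5g3, 8.78 for Atp5g1 and 4.66 for Atp5g2. Reads of Atp5g2 are uncertain because 87.4% of its windows were shared with other genes.

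**Figure D2:**
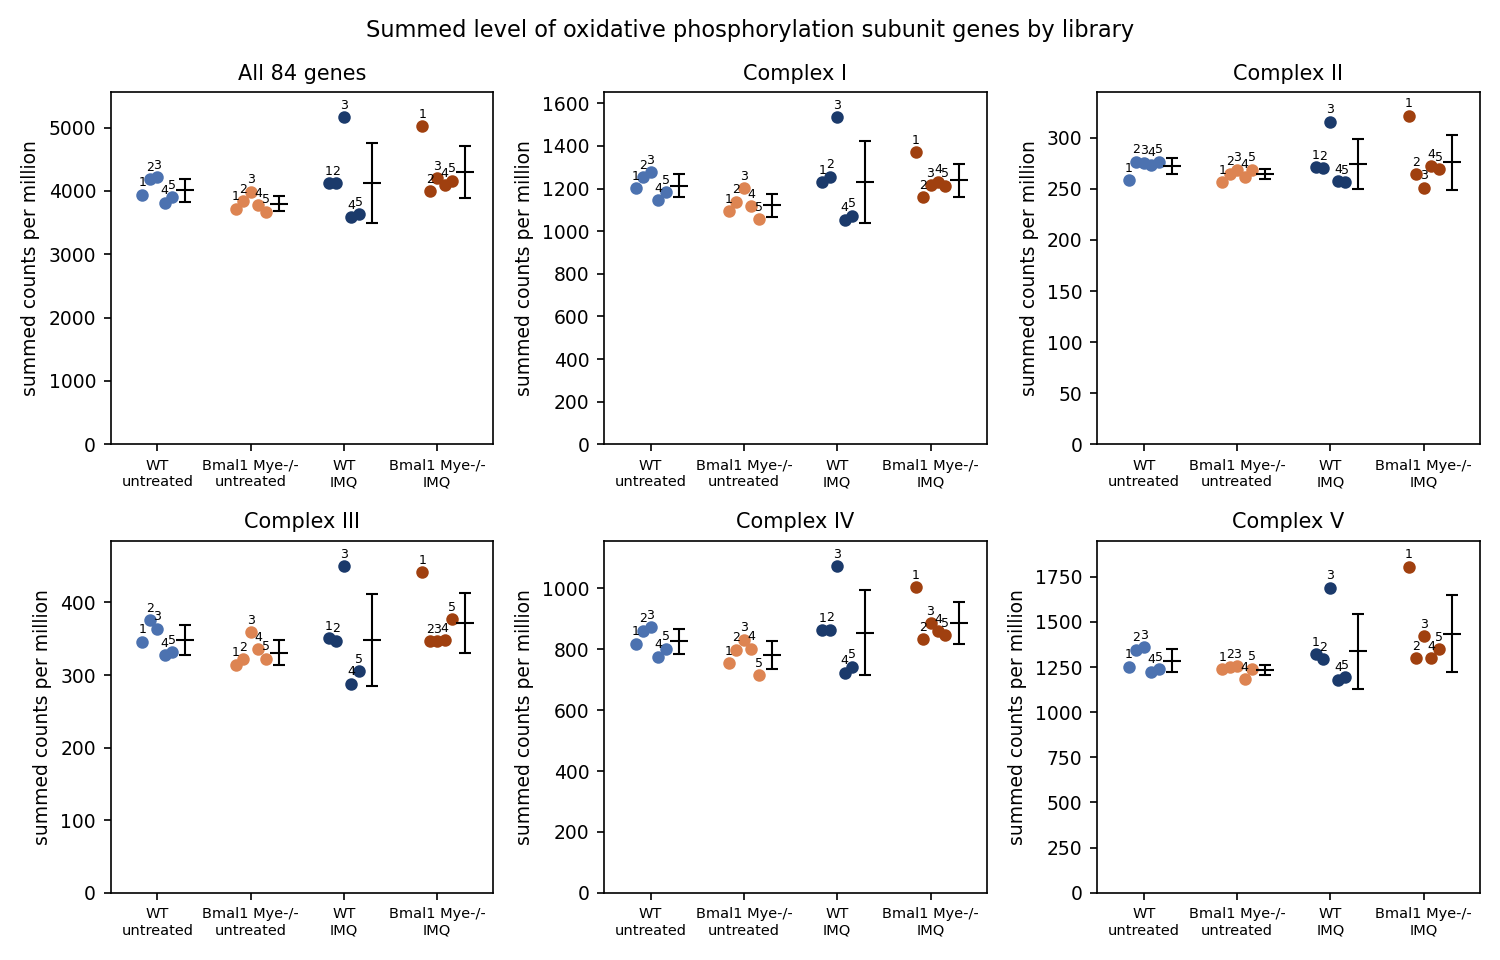
Summed CPM of the 84 genes and of each complex in each of the 20 libraries (points numbered by replicate, bars, mean and SD of 5). IMQ-treated WT replicate 3 and the library labelled Bmal1 Mye-/- IMQ replicate 1 are the highest of their groups in all 6 panels.

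The 84 genes took 0.396% ± 0.0346 of counts in untreated WT and 0.378% ± 0.0105 in untreated Bmal1 Mye-/- neutrophils (SD, n = 5 libraries). The share was 0.397% ± 0.115 in IMQ-treated WT and 0.474% ± 0.125 in IMQ-treated Bmal1 Mye-/- neutrophils, where the spread was larger. The summed level scaled by TMM was 3940, 4182, 4214, 3815 and 3899 CPM in untreated WT replicates 1 to 5 and 3720, 3840, 3988, 3778 and 3673 CPM in untreated Bmal1 Mye-/- replicates. It was 4124, 4124, 5164, 3586 and 3634 CPM in IMQ-treated WT and 5027, 4000, 4206, 4089 and 4161 CPM in IMQ-treated Bmal1 Mye-/- libraries. IMQ-treated WT ran both above and below the untreated libraries, while the 5 IMQ-treated Bmal1 Mye-/- libraries lay above the 5 untreated ones of that genotype. Without the 2 libraries that stood apart, the share was 0.347% ± 0.0340 in IMQ-treated WT and 0.419% ± 0.0298 in IMQ-treated Bmal1 Mye-/- (n = 4 each). In bulk RNA, more cells of a respiring type and more transcript per cell cannot be told apart.

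The first comparison set untreated Bmal1 Mye-/- mice beside untreated WT mice, which differ in more than Bmal1, as given above. In untreated neutrophils 0 of 78 passed edgeR's quasi-likelihood test at a Benjamini-Hochberg adjusted p under 0.05, where 0.207% of all tested genes did. Of the 78, 0 had an unadjusted p under 0.05, against 2.19% of all tested genes. DESeq2 also called 0, against 0.272% of all. With only the 2 groups compared in the fit, 0 of 77 were called, against 0.442% of all. Small p-values were few over all tested genes, so 0 calls do not show that these genes were unchanged. The fitted direction was uneven: 71 of 78 genes were fitted lower in Bmal1 Mye-/- than in WT, including all 34 complex I genes, with a median log2 difference of -0.10 against -0.00 over all tested genes. These genes share their libraries, so the count of signs carries no test. The median stayed between -0.14 and -0.09 when any library was left out.

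The lowest p was that of Ndufc2, a membrane-arm subunit of complex I on chromosome 7, the chromosome of Arntl. Ndufc2 was at 14.7, 16.6, 16.8, 10.3 and 13.7 CPM in untreated WT and at 9.53, 11.6, 9.59, 7.78 and 10.5 CPM in untreated Bmal1 Mye-/- libraries, and the groups overlapped. The log2 difference was -0.56 (SE 0.27, 95% interval -1.13 to 0.01, adjusted p = 1.00 by edgeR's quasi-likelihood test). For Ndufs4, a complex I subunit whose loss causes Leigh syndrome, the 5 Bmal1 Mye-/- values (26.8 to 28.7 CPM) lay below the 5 WT values (29.9 to 32.9 CPM), with a log2 difference of -0.14 (95% interval -0.32 to 0.04) that did not pass. The same held for Atp5c1, the gamma subunit of ATP synthase, at 72.9 to 76.4 CPM against 77.6 to 82.3 CPM (-0.09, 95% interval -0.27 to 0.09). These 2 genes were 2.56% of the 78, where 0.727% of all tested genes lay wholly below.

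**Figure D3:**
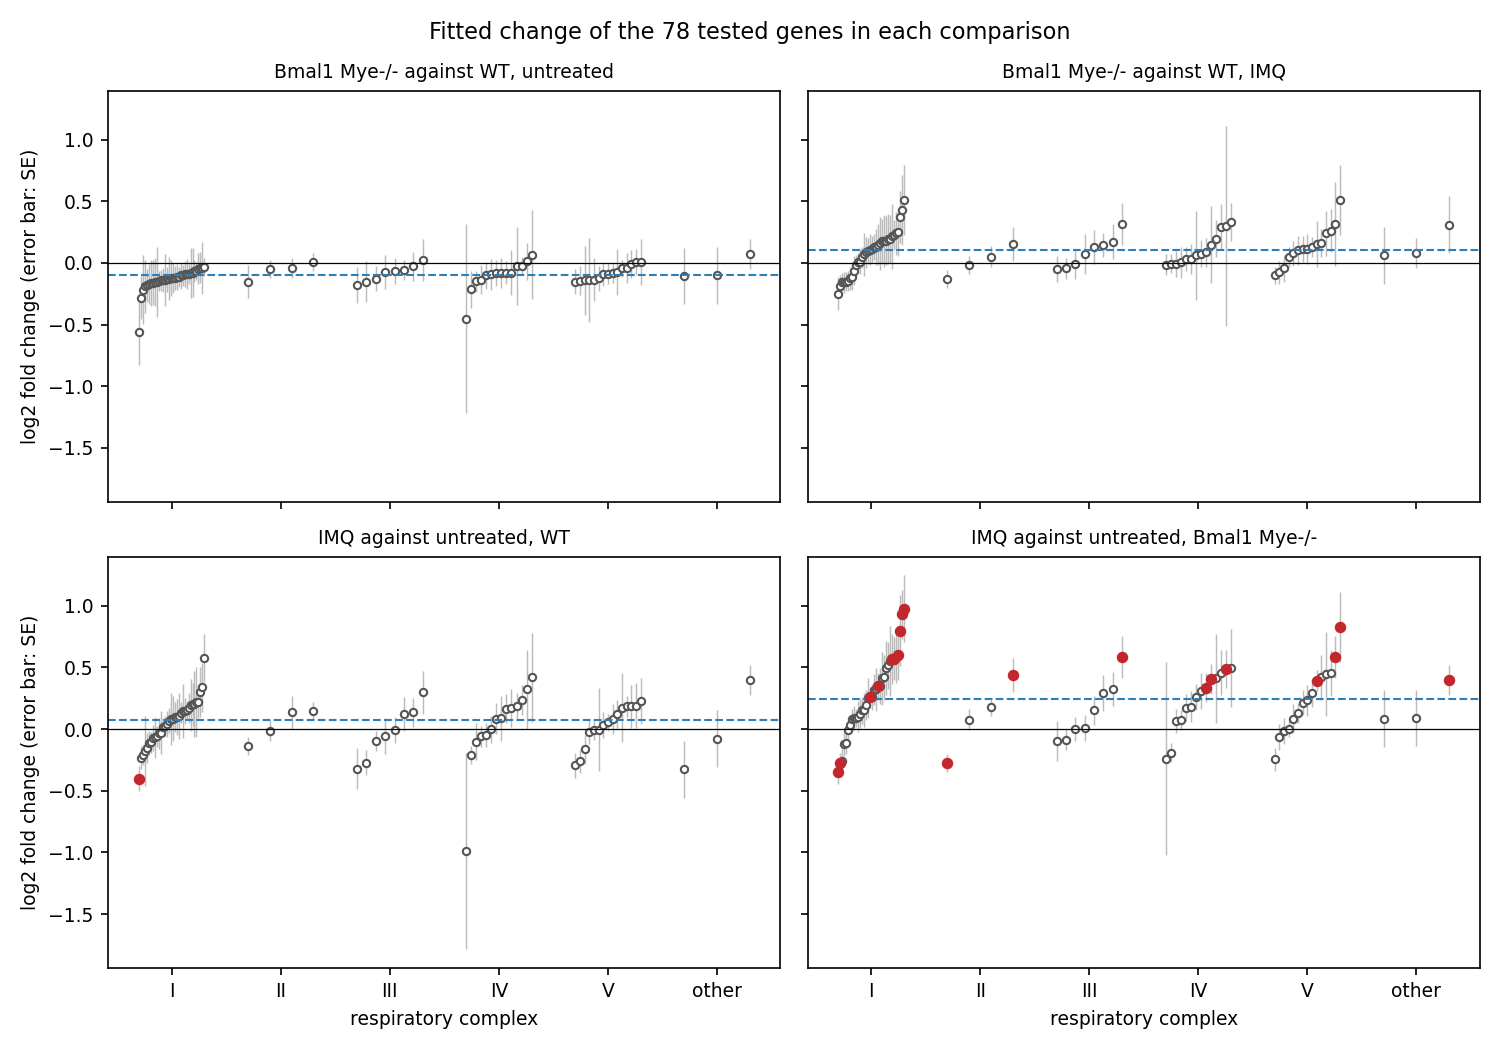
Log2 fold change of the 78 tested genes by complex in 4 comparisons (points, fitted value, grey bars, SE, red, adjusted p under 0.05, dashed line, median of the 78). Red points appear once in WT and 20 times in Bmal1 Mye-/- after IMQ, and in neither comparison of genotypes.

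Under IMQ the genotypes again did not differ by the test. Of 78 genes 0 were called, where 0.292% of all tested genes were, and DESeq2 called 0, where it called 2.22% of all genes. An unadjusted p under 0.05 was found for 2 (2.56%), against 19.9% of all tested genes. Here 57 of 78 were fitted higher in Bmal1 Mye-/-, with a median log2 difference of 0.10 against 0.03 over all tested genes. This median ran from 0.032 to 0.219 when any library was left out, with the highest value without IMQ-treated WT replicate 3, and was 0.288 with library totals, where that of all genes was 0.229. The smallest p-values were those of Cox5a, which binds the matrix side of complex IV, at 0.33 (SE 0.15, adjusted p = 0.246 by edgeR's quasi-likelihood test), and of Ndufs1, the largest iron-sulfur subunit of complex I, at -0.16 (SE 0.07, adjusted p = 0.247).

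This comparison turned on 1 library. Without IMQ-treated WT replicate 3, 16 of the 78 genes were called (20.5%), all 16 higher in Bmal1 Mye-/-, where 21.9% of all tested genes were called and 13.5% were called higher. The smallest p-values were those of Ndufb5 at 0.66 (SE 0.16), Ndufa12 at 0.85 (SE 0.22) and Ndufa5 at 0.87 (SE 0.24). When the library labelled Bmal1 Mye-/- IMQ replicate 1 was left out as well, only Ndufb5 (0.51, SE 0.13) and Ndufa12 (0.65, SE 0.19) were called (2.56%), where 1259 of all tested genes (8.89%) were. Ndufb5 and Ndufa12 are accessory subunits of complex I. Ndufb5 was at 13.4, 14.2, 25.6, 10.04 and 11.2 CPM in IMQ-treated WT and at 28.1, 16.4, 16.9, 14.8 and 19.97 CPM in IMQ-treated Bmal1 Mye-/- libraries, so replicate 3 was the only WT library within the Bmal1 Mye-/- range.

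In WT mice IMQ moved few of these genes past the test. Of 78, 0 rose and 1 fell, where 3.95% of all tested genes were called. An unadjusted p under 0.05 was found for 11 (14.1%), against 22.3% of all tested genes. DESeq2 called 6 (7.69%), 2 higher and 4 lower, against 10.6% of all. The gene that fell was Ndufa3, a small membrane subunit of complex I, with 74.8, 74.8, 74.5, 68.8 and 74.7 CPM in untreated and 55.0, 59.5, 49.2, 51.0 and 63.5 CPM in IMQ-treated WT libraries. Every treated value lay below every untreated value, with a log2 fold change of -0.40 (SE 0.10, adjusted p = 0.0372 by edgeR's quasi-likelihood test). The call was lost in 11 of 20 fits that left out a library (any untreated WT library, IMQ-treated WT replicates 1 to 4, and untreated Bmal1 Mye-/- replicates 1 and 4), with an adjusted p of at most 0.0876, and with the replicate number as a block, where the adjusted p was 0.0639.

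Several other genes had differences of similar size in WT that did not pass. For 3 genes (3.85%, where the share was 3.31% of all tested genes) every treated library lay below every untreated one: Ndufa3, Atp5j2, a membrane subunit of ATP synthase, at -0.29 (SE 0.10), and Cox8a at -0.21 (SE 0.08). Cox7a2l, which helps complexes III and IV join into supercomplexes, was at 55.9, 60.2, 57.4, 63.5 and 61.1 CPM in untreated and 82.5, 83.4, 92.8, 79.4 and 54.1 CPM in IMQ-treated WT libraries. Its log2 fold change was 0.40 (SE 0.12, adjusted p = 0.0684 by edgeR's quasi-likelihood test), and 4 of 5 treated libraries lay above all untreated ones. Ndufa11, which stabilises the membrane arm of complex I, had the next smallest p at 0.58 (SE 0.20, adjusted p = 0.0902). The exception in both was IMQ-treated WT replicate 5, which at 54.1 CPM of Cox7a2l and 11.48 CPM of Ndufa11 lay below every untreated library. Without that replicate 8 genes were called (10.1% of 79 tested, where 13.9% of all tested genes were called in the same fit): Cox7a2l, Ndufa11 and Atp5j higher, and Ndufa3, Ndufa7, Ndufa13, Atp5e and Atp5j2 lower. Without the library labelled Bmal1 Mye-/- IMQ replicate 1, 2 genes were called (2.56%, against 6.69% of all). Without IMQ-treated WT replicate 3 the median log2 fold change of the 78 genes turned from 0.07 to -0.10.

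In Bmal1 Mye-/- mice more of these genes moved after IMQ. Of 78 genes 20 were called (25.6%), where 23.5% of all tested genes were, so the share called was near that of the whole table. The direction was less even than the background: 17 rose (21.8%), where 14.4% of all tested genes rose, and 3 fell (3.85%), where 9.04% fell. The median log2 fold change was 0.24 against 0.02 over all tested genes. For 23 of the 78 (29.5%) all 5 treated libraries lay above all 5 untreated ones, against 10.8% of all tested genes, and for 2 all lay below, against 9.31%. Scaled by library totals without TMM factors, 12 rose and 0 fell (15.4% called, against 22.7% of all tested genes).

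The count depended on single libraries and was not evenly spread over them. Leaving out 1 library gave between 5 and 36 calls, and the share of all tested genes moved with it: at the lowest count 6.41% of these genes and 12.4% of all were called, and at the highest 46.2% and 31.5%. It was 5 without Bmal1 Mye-/- IMQ replicate 5, 10 without the library labelled Bmal1 Mye-/- IMQ replicate 1, 7, 11 and 7 without untreated Bmal1 Mye-/- replicates 1, 2 and 4, and 36 without IMQ-treated WT replicate 3, which enters through the shared estimate of the spread. Without both libraries that stood apart it was 28, with 24 higher and 4 lower (35.9%, against 28.8% of all tested genes), and the median was 0.18. With the replicate number as a block it was 23 (29.5%, against 22.2% of all tested genes).

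Complex I held 8 of the 17 genes that rose and 2 of the 3 that fell. Of its 34 tested genes 23.5% rose, near the 21.8% of all 78, and 5.88% fell, against 3.85%. Ndufa11 was at 12.97, 12.97, 12.6, 11.5 and 13.4 CPM in untreated and 27.2, 18.8, 24.8, 21.7 and 28.4 CPM in IMQ-treated Bmal1 Mye-/- libraries. The groups did not overlap, and the log2 fold change was 0.93 (SE 0.20, adjusted p = 0.00671 by edgeR's quasi-likelihood test), a 1.91-fold rise. Ndufc2 rose from 9.53, 11.6, 9.59, 7.78 and 10.5 CPM to 30.3, 16.2, 17.7, 12.3 and 19.9 CPM, again without overlap, by 0.98 (SE 0.27, adjusted p = 0.0178). Its highest value was that of the library labelled Bmal1 Mye-/- IMQ replicate 1. The call of Ndufa11 held in all 20 fits that left out a library, and that of Ndufc2 in 19. The other 6 that rose were the iron-sulfur protein Ndufv2 (0.57), Ndufa6 (0.35), Ndufs4 (0.26), Ndufa10 (0.60), Ndufa12 (0.80) and Ndufb2 (0.57), with adjusted p between 0.0273 and 0.0495. Of the 20 fits that left out a library, these calls held in 16 for Ndufv2, 17 for Ndufa6, 15 for Ndufs4, 14 for Ndufa10, 8 for Ndufa12 and 10 for Ndufb2.

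The 2 complex I genes that fell stood above its median level in untreated WT, Ndufa13 at 73.3 and Ndufa7 at 80.7 CPM per kb. Ndufa13, also known as GRIM-19, was at 83.8, 90.0, 93.9, 92.0 and 77.9 CPM in untreated and 63.4, 76.9, 69.1, 77.5 and 56.2 CPM in IMQ-treated Bmal1 Mye-/- libraries, with no overlap and a log2 fold change of -0.35 (SE 0.09, adjusted p = 0.0134 by edgeR's quasi-likelihood test). Ndufa7 went from 40.4, 40.3, 39.4, 45.1 and 35.3 CPM to 31.05, 35.7, 32.4, 35.2 and 31.3 CPM, a change of -0.28 (SE 0.08, adjusted p = 0.0226), with 1 treated library above the lowest untreated one. The direction of both was the same in all settings tried, but with library totals their adjusted p was 0.0876 and 0.276. The ends of the ranges differed between genes: in Ndufa13 and Ndufa3 the lowest treated library was replicate 5, which was the highest for Ndufa11.

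**Figure D4:**
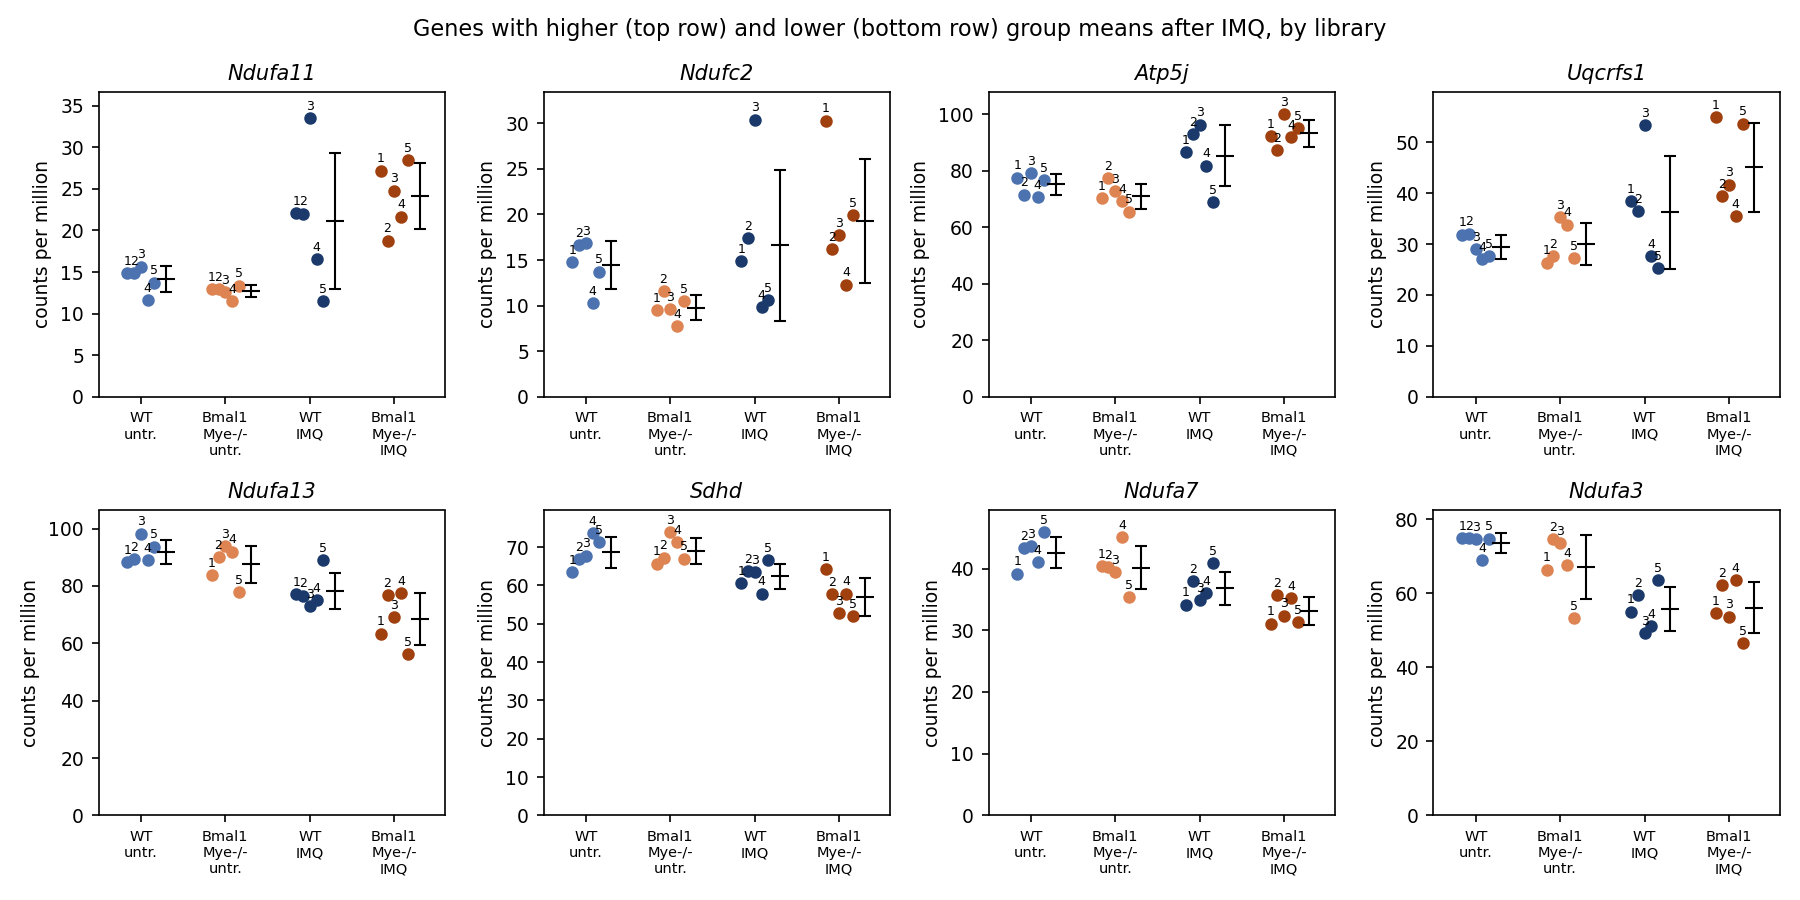
CPM of 8 genes in each library (points numbered by replicate, bars, mean and SD of 5 libraries). Ndufa11, Ndufc2, Atp5j and Uqcrfs1 do not overlap between untreated and IMQ-treated Bmal1 Mye-/- libraries, nor do Ndufa13 and Sdhd, which are lower, and Ndufa3 does not overlap between untreated and IMQ-treated WT libraries.

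The 2 membrane anchors of complex II moved in opposite directions. Sdhc went from 28.4, 28.5, 28.7, 26.6 and 31.3 CPM to 51.1, 33.5, 37.2, 33.5 and 39.1 CPM in Bmal1 Mye-/- libraries, a log2 fold change of 0.44 (SE 0.14, adjusted p = 0.0290 by edgeR's quasi-likelihood test). Sdhd went from 65.7, 67.2, 73.9, 71.3 and 67.0 CPM to 64.2, 57.7, 52.8, 57.8 and 52.0 CPM, a change of -0.28 (SE 0.07, adjusted p = 0.0154). Neither gene overlapped between the groups. The call of Sdhd held in all 20 fits that left out a library and that of Sdhc in 15, but with library totals the adjusted p of Sdhd was 0.430, with a change of -0.13, and that of Sdhc was 0.0503. Sdhb (0.18, adjusted p = 0.0849) and Sdha (0.08, adjusted p = 0.510) did not pass.

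In complex III, Uqcrfs1, the Rieske iron-sulfur protein, was the 1 of 8 genes that rose. It was at 26.3, 27.6, 35.3, 33.8 and 27.2 CPM in untreated and 55.0, 39.4, 41.7, 35.5 and 53.6 CPM in IMQ-treated Bmal1 Mye-/- libraries, without overlap, with a log2 fold change of 0.59 (SE 0.17, adjusted p = 0.0225 by edgeR's quasi-likelihood test). The core protein Uqcrc1 (0.33, adjusted p = 0.0915) did not pass. Uqcrc2, the other core protein, on chromosome 7, had a mean of 58.2 CPM in both groups and a log2 fold change of 0.00 (SE 0.10).

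In complex IV, 3 of 14 tested genes rose. Cox5b, a zinc-binding subunit, went from 70.4, 77.6, 76.5, 76.6 and 67.4 CPM to 100.97, 82.8, 101.4, 100.2 and 102 CPM, by 0.40 (SE 0.12, adjusted p = 0.0244 by edgeR's quasi-likelihood test). Replicate 2 lay apart from 4 treated libraries that were nearly equal. Cox5a rose by 0.49 (SE 0.15, adjusted p = 0.0303) with overlap, and Cox7a2 by 0.33 (SE 0.12, adjusted p = 0.0476) without. When a library was left out these calls held in 18 of 20 fits for Cox5b, 14 for Cox5a and 12 for Cox7a2. Cox4i1, a nuclear-encoded regulatory subunit, was at 171 ± 6.28 and 205 ± 13.5 CPM (SD, n = 5), with an adjusted p of 0.0770. Cox7a2l, outside the complexes, rose by 0.40 (SE 0.12, adjusted p = 0.0265), and the same change in WT, 0.40, was not called. The interaction of Cox7a2l was 0.01 (SE 0.17).

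In complex V, 3 of 15 genes rose. Atp5j, coupling factor 6 of the peripheral stalk, went from 70.3, 77.4, 72.7, 69.1 and 65.6 CPM to 92.3, 87.2, 100.001, 91.8 and 95.1 CPM, without overlap and with little spread, by 0.39 (SE 0.08, adjusted p = 0.00707 by edgeR's quasi-likelihood test). Its call held in all 20 fits that left out a library and under all 11 other settings. Atp5o, also of the stalk, rose by 0.58 (SE 0.17, adjusted p = 0.0243), with 50.3% of its windows shared with other genes. Atp5g2 rose by 0.83 (SE 0.28, adjusted p = 0.0418), with the uncertainty of shared reads given above. These calls held in 17 and 14 of the 20 fits. The catalytic subunits Atp5b (0.23, adjusted p = 0.165) and Atp5a1 (0.42, adjusted p = 0.0977) did not pass.

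The calls were also counted by untreated WT level in CPM, which is not per length. Of the 39 tested genes with the lower level (up to 35.5 CPM), 36 were fitted higher, 12 rose (30.8%) and 0 fell, with a median log2 fold change of 0.41. Over all tested genes in that range of level 16.8% rose and 7.98% fell, with a median of 0.14. Of the 39 with the higher level, 28 were fitted higher, 5 rose (12.8%) and 3 fell (7.69%), with a median of 0.09. There 12.3% of all tested genes rose and 12.6% fell, with a median of -0.07, so the share that rose was near that of the whole table. By promoter letters, 5 of 7 tested genes with an E-box were fitted higher in IMQ-treated Bmal1 Mye-/- mice, with 0 called higher and Ndufa7 called lower, a median of 0.08 against 0.26 in 59 genes without one. For the ETS core the medians were 0.08 in 16 genes with it and 0.33 in 50 without, for the NRF1 part 0.13 in 10 and 0.28 in 56, for the YY1 core 0.10 in 11 and 0.31 in 55, and for TATAAA -0.01 in 5 and 0.31 in 61. In this comparison the median was lower in genes with the letters for each of the 5 motifs. Between genotypes this did not hold for the E-box. There the medians with and without it were 0.15 and 0.09 under IMQ and -0.07 and -0.10 in untreated mice. In the interaction they were 0.22 and 0.18. These are descriptions of small lists.

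Whether IMQ acted differently in the 2 genotypes was tested directly as an interaction. Of the 78 genes 0 were called, where 0% of all tested genes were. The smallest adjusted p was 0.640, 721 of all tested genes had an unadjusted p under 0.05, and DESeq2 called 0. Of the 78 interaction terms 67 were positive, with a median of 0.19 against 0.01 over all tested genes. The largest was that of Ndufc2 at 0.77 (SE 0.38, 95% interval -0.03 to 1.58), so a difference between genotypes in the response of single subunit genes was not shown. The 2 comparisons of genotype and the 2 of treatment share libraries and are not independent of each other.

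Other mitochondrial genes were counted from lists for comparison, in the same fit. Of all tested genes 14.4% rose and 9.04% fell in Bmal1 Mye-/- mice after IMQ, and the shares of each list are set beside these. In these mice 15 of 77 tested mitochondrial ribosomal protein genes rose (19.5%) and 0 fell, with a median log2 fold change of 0.45. Among them were Mrpl45 at 0.64 and Mrpl54 at 1.03. Of 45 assembly factors of the complexes 5 rose and 5 fell (11.1% each), with a median of 0.31. The 5 that rose included Cox18 (1.34) and Sco1 (0.61), which act in complex IV assembly, and the 5 that fell included Uqcc3 (-0.51) and Ttc19 (-0.45), which act in complex III assembly. Of 19 genes of electron carriers 4 rose (21.1%) and 2 fell (10.5%), with a median of 0.47. They included cytochrome c (Cycs) at 0.79 and the electron transfer flavoprotein Etfa at 0.91 higher, and Coq4 at -0.67. Of 17 genes of the TCA cycle and pyruvate dehydrogenase 2 rose (11.8%), Idh3b (0.47) and Idh3g (0.32), and 0 fell. Of 15 regulators of mitochondrial biogenesis Gabpa, which encodes the ETS factor GABP alpha, rose (0.54) and Polg2 fell (-0.56), 6.67% each. Of 7 ATP and phosphate carriers 3 rose (42.9%): Vdac3 (0.80), Vdac1 (0.44) and Slc25a4 (1.47).

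Glycolysis genes were counted in the same way, and their difference from the respiratory genes was not tested. Of 18 glycolysis genes 6 rose (33.3%) and 0 fell in WT after IMQ, with a median of 0.32, where 2.34% of all tested genes rose. The smallest p-values were those of the phosphofructokinases Pfkl (1.12) and Pfkp (0.80) and of lactate dehydrogenase Ldha (0.56). In Bmal1 Mye-/- mice 3 rose (16.7%, against 14.4% of all tested genes), with a median of 0.13. In WT none of the electron carrier, TCA cycle, biogenesis and carrier genes was called, where 3.95% of all tested genes were. There 1 mitochondrial ribosomal protein gene rose (Mrps25, 0.36), or 1.30%. In addition, 2 assembly factors fell (Uqcc3, -0.55, and Coa3, -0.31), or 4.44%, where 1.60% of all tested genes fell.

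**Figure D5:**
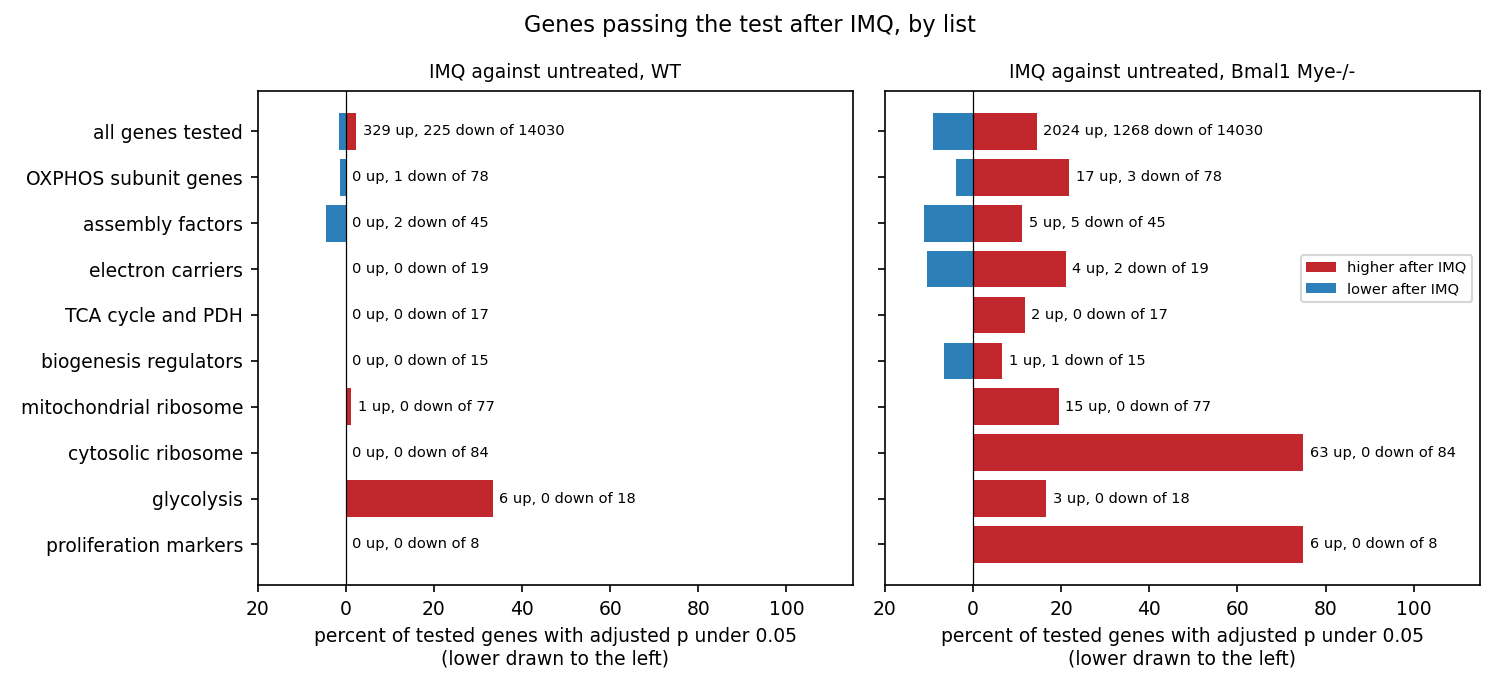
Percent of tested genes with an adjusted p under 0.05 after IMQ in WT (left panel) and Bmal1 Mye-/- mice (right panel), higher to the right of 0 and lower to the left, with counts beside each bar. In Bmal1 Mye-/- mice 63 of 84 cytosolic ribosomal protein genes and 6 of 8 proliferation markers rose, against 17 of 78 oxidative phosphorylation subunit (OXPHOS) genes and 14.4% of all tested genes.

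Markers of dividing cells and of ribosomes were counted in the same fit, and whether they moved with the respiratory genes was not tested. In Bmal1 Mye-/- mice after IMQ 63 of 84 tested cytosolic ribosomal protein genes rose (75%) and 0 fell, with a median of 0.73. Of 8 proliferation markers 6 rose (75%), with a median of 1.70, including Mki67 (1.72) and Top2a (1.99). Over all tested genes 14.4% rose. In WT after IMQ 0 genes of either list were called. There 75 of 84 and 8 of 8 were fitted higher, with medians of 0.34 and 1.02, and the median of the 78 subunit genes was 0.07. The summed proliferation markers were at 338 to 602 CPM in untreated and 1014 to 2282 CPM in IMQ-treated Bmal1 Mye-/- libraries, and at 415 to 647 and 407 to 2119 CPM in WT libraries. The highest treated WT library was replicate 3, with 1535 CPM of complex I against 1053 to 1256 in the other 4. None of these 8 markers was at 0 throughout a group. The 5 primary granule genes of early neutrophils had 0 calls in Bmal1 Mye-/- mice after IMQ, but all 5 were fitted higher, with a median of 1.04. Their sums were 366 to 945 and 250 to 1668 CPM in untreated and treated Bmal1 Mye-/- libraries. In WT after IMQ 2 were fitted higher and 3 lower, with a median of -0.45. In Bmal1 Mye-/- mice 3 of 9 monocyte and macrophage markers rose (Ccr2, F13a1 and Ly86, 33.3%). Their sums were 307 to 399 CPM in untreated and 142 to 1469 CPM in treated libraries. Of 10 neutrophil markers 1 fell there (Csf3r, -1.38), or 10%, against 9.04% of all tested genes. In the same comparison 8 of the 10 were fitted lower, with a median of -0.44. In WT after IMQ 8 were fitted lower too, with a median of -0.11 and 0 calls. Between genotypes under IMQ 4 of 5 eosinophil markers were fitted higher in Bmal1 Mye-/-, with a median of 0.37. Prg2 (2.54) and Epx (2.97) were called, or 40%, against 0.185% of all tested genes. Sums of the 5 were 17.3 to 34.3 CPM in IMQ-treated WT and 36.9 to 186 CPM in IMQ-treated Bmal1 Mye-/- libraries. All 4 tested basophil and mast cell markers were fitted higher, with a median of 1.55 and 0 calls. The part of these cell types in the change of the respiratory genes was not tested.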

How the data were processed

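Bone marrow neutrophil RNA of 20 mice was sequenced from poly(A) libraries as 50-base reads. Whole-number read counts per gene were deposited for each sample and made by the authors against mm10. The submitters' processing notes name bcl2fastq, STAR 2.7.8a and HTSeq 2.0.1, whereas the methods of the study name TopHat and RPKM values. The annotation and strand setting are not given in the sources used here. Libraries held 30782166 to 92613500 gene counts. The 95% intervals are those of the fitted log2 difference, from its SE and a t distribution with 16 degrees of freedom. The SE was derived from the test statistic, so an interval need not match the p-value exactly.

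Counts of 24421 genes were filtered with filterByExpr (14030 kept) and fitted with edgeR 4.0.16 in R 4.3.3, with 1 mean per group, TMM factors and the quasi-likelihood test. P-values were adjusted by Benjamini-Hochberg over all tested genes, at 0.05. Alternatives used DESeq2 1.42.0, limma 3.58.1 on log2(CPM + 0.1), other scalings and filters, and left-out libraries. Shared stretches are 50-base windows of the principal transcript found in other genes. Genes named were, in each complex, the 2 with the smallest p in each comparison and the 2 most abundant, all Sdh genes, isoform sets, members on chromosome 7 or under the filter, and at most 3 called genes per related list. The other members named, among them further called ones, were chosen after their values were seen. The members, lists and rules were chosen with earlier results of these data known. Deviations of same-numbered libraries correlated at 0.128 to 0.426 between IMQ-treated and untreated Bmal1 Mye-/- mice and at 0.0728 to 0.384 between those of WT. Between genotypes the correlations ran from -0.441 to 0.206 untreated and from -0.497 to 0.343 under IMQ. A block on the replicate number was therefore an alternative, fitted for all comparisons. On counts simulated for the comparison of genotypes under IMQ, with 14030 genes, 54 of 100 genes changed by a log2 of 1 and 79 of 100 changed by 2 were recovered, with 7 false calls.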

Additional observations from a re-analysis of the deposited data

Results flagged for a closer look

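In 22 of 188 groups of 5 libraries 1 library lay far from the other 4, by the ratio of its gap to the range of the group. Chance alone sets 1 library apart in about 1 of 20 groups, and genes of one library are not independent. IMQ-treated WT replicate 3 was the highest of its group in 9 cases: complex II at 315.8 CPM (next 271.1), complex V at 1689 (1322), Atp5a1 at 344.8 (206.1), Atp5g1 at 18.56 (8.232), Atp5g3 at 92.33 (55.35), Cox6b2 at 12.75 (4.718), Cox7b at 40.53 (29.12), Ndufs7 at 40.08 (36.21) and Sdha at 133 (112.5).

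The library labelled Bmal1 Mye-/- IMQ replicate 1 was the highest of its group in the sum of all 84 genes at 5027 CPM (next 4206), in complex V at 1806 (1420), and in Atp5a1 at 402.2 (247.6), Atp5g1 at 20.11 (9.975), Atp5g3 at 92.95 (59.88), Cox7b at 49.84 (32.31) and Uqcrb at 30.14 (23.48). These 2 libraries had 6.34% and 6.4998% of reads not uniquely aligned, against a median of 4.53% over all libraries. The part of this in the levels was not tested.

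The remaining cases were single values. Complex II was low at 258.4 CPM in untreated WT replicate 1 (next 273.6) and complex V at 1184 in untreated Bmal1 Mye-/- replicate 4 (1238). Cox5b was low at 82.83 in Bmal1 Mye-/- IMQ replicate 2 (100.2) and Ndufa3 at 68.81 in untreated WT replicate 4 (74.53). Ndufa13 was high at 88.9 in IMQ-treated WT replicate 5 (77.12) and Ndufs7 at 40.56 in untreated Bmal1 Mye-/- replicate 3 (34.52).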

How the results depend on the processing

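For IMQ in Bmal1 Mye-/- mice, 20 genes were called (25.6%, against 23.5% of all tested genes). With library totals 12 were called (15.4%, against 22.7%), with limma 7 (8.97%, against 18.6%) and with DESeq2 29 (37.2%, against 31.1%). Without both IMQ-treated WT replicate 5 and Bmal1 Mye-/- IMQ replicate 2 it was 32 (40.5%, against 31%). Leaving out 1 library gave 5 to 36. For IMQ in WT mice, 1 gene was called (1.28%, against 3.95% of all tested genes). DESeq2 called 6 (7.69%, against 10.6%), and 8 were called without the same 2 libraries (10.1%, against 15.1%). It was 0 without the low-count filter (against 1.55%) and 0 with the replicate block (against 1.35%). Leaving out 1 library gave 0 to 8. A setting chosen after seeing the data left out both IMQ-treated WT replicate 3 and the library labelled Bmal1 Mye-/- IMQ replicate 1. There 4 genes were called for IMQ in WT (5.13%, against 6.35%) and 2 between genotypes under IMQ (2.56%, against 8.89%). Between genotypes under IMQ, leaving out 1 library gave 0 to 16 (16 without IMQ-treated WT replicate 3). The median log2 fold change for IMQ in WT was 0.07, -0.017 with limma, -0.10 without both of those libraries, and -0.10 to 0.13 with 1 library left out. The cause was not tested. Without the genes of chromosome 7 the count for IMQ in WT was 0 by construction, since Ndufa3, the gene called, lies there and was removed. The genotype comparison in untreated mice and the interaction gave 0 calls with any 1 library left out.

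The replicate block gave 23 calls for IMQ in Bmal1 Mye-/- mice (29.5%, against 22.2% of all tested genes) and 0 for IMQ in WT mice (against 1.35%). It gave 0 in both comparisons of genotype and in the interaction. With library totals the median of all tested genes moved to 0.16 for IMQ in Bmal1 Mye-/- mice, 0.23 between genotypes under IMQ and 0.20 in the interaction, and the medians of the 78 genes were then 0.39, 0.29 and 0.38. For 48 named or called genes in 4 comparisons, 3710 values with 1 library left out kept their side of the threshold, 38 gained and 92 lost a call, and under other settings 2001 kept it, 35 gained and 36 lost a call, with none changing sign among called values. Depth limits genes of few counts such as Cox6a2 and those not tested.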
